A study of Mus musculus with 6 samples.

Results

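The genes described here are Tagap and 7 regulators of G protein signalling, Rgs1, Rgs2, Rgs3, Rgs10, Rgs14, Rgs16 and Rgs19. They were taken by symbol from a list, and they are 8 of the 49671 genes in the count tables. The list was drawn up with results of these data in view and was in part selected on them: the read counts of Tagap and Rgs16 were already known to be lower in BiTS than in isotype cultures. Values of that comparison are therefore a description and carry no test. All 8 genes passed the filter on low counts, which kept 13996 genes.

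RNA was sequenced in bulk from mouse splenocyte cultures labelled as naive primary CD8 T cells of OT-I genotype. OT-I cells carry a transgenic T cell receptor for SIINFEKL, an ovalbumin peptide. All cultures, controls included, were stimulated with SIINFEKL on antigen-presenting cells for 48 h. The treatments were BiTS (a bispecific molecule, the T cell silencer, that brings the inhibitory receptor LAG-3 next to the T cell receptor), BiTS(mut), whose change the labels do not describe, and an isotype control. Each of the 3 groups had 2 libraries, and nothing says that they came from separate mice, so the p-values reflect the spread between these libraries alone, which may be technical. Title numbers 1 to 3 hold 1 library of each group (BiTS replicate 1, BiTS(mut) replicate 1, isotype replicate 1) and title numbers 4 to 6 hold the others (BiTS replicate 2, BiTS(mut) replicate 2, isotype replicate 4). They are called the first and the second set below, and the labels do not say what separates them.

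Regulators of G protein signalling, the RGS proteins, switch off heterotrimeric G proteins. A G protein-coupled receptor, such as a chemokine receptor, loads the alpha subunit with GTP, and the RGS protein speeds up the hydrolysis of that GTP. In lymphocytes, RGS proteins shorten responses to chemokines and so limit migration. TAGAP carries a different GTPase-activating domain that acts on another class of GTPase, and its gene is known to be induced when T cells are activated.

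Promoter sequence was available for 6 of the 8 genes, in the RefSeq annotation of GRCm38.p6, as 250 bases before and 50 bases after the start of transcription. The promoters of Tagap and Rgs16 are shown because both genes were lower in every BiTS library. That of Tagap1, a close copy of Tagap on the same chromosome, is shown because its level moved apart from that of Tagap, and that of Rgs2 because it differed most of the 8 between the sets. Capitals mark TGGAAA, the core to which NFAT factors of T cell activation bind, on either strand, so that TTTCCA is the same core on the other strand.
Tagap, chr17:7925750-7926049, plus strand: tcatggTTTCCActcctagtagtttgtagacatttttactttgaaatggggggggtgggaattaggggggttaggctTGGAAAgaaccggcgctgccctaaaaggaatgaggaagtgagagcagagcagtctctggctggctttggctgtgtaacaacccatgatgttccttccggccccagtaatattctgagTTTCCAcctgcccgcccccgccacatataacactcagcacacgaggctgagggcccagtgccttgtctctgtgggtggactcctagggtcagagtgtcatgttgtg
Tagap1, chr17:6961107-6961406, minus strand: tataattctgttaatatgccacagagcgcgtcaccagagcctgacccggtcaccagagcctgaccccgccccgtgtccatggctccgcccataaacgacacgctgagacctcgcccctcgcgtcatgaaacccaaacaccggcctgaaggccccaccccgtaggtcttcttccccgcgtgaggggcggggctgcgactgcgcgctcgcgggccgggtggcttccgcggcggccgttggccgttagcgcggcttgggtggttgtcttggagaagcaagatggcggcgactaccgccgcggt
Rgs16, chr1:153740103-153740402, plus strand: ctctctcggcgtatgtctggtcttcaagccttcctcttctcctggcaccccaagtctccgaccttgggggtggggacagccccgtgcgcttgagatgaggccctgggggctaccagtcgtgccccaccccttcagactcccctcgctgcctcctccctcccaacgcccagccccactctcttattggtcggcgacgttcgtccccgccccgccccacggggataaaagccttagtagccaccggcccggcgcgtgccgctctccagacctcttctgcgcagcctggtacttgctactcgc
Rgs2, chr1:144004100-144004399, minus strand: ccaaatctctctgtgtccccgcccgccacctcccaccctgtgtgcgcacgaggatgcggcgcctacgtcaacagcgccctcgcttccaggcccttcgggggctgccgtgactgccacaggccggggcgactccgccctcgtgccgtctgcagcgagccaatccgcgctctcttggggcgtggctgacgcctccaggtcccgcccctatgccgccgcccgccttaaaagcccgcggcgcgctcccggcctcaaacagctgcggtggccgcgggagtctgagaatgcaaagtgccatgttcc

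The Tagap promoter held 3 TGGAAA cores, 244, 173 and 56 bases before the start, and the promoters of the other 5 genes with an entry and of Tagap1 held 0. Of 32851 RefSeq promoters of the same length, 21.43% held at least 1 such core and 0.3409% held 3 or more. The AP-1 letters TGANTCA, the cAMP response letters TGACGTCA and the STAT letters TTCNNNGAA were found on neither strand in any of these promoters, against 7.808%, 1.79% and 8.298% of all promoters. TATAAA was found once in each of 2 Rgs3 entries, and 13.62% of all promoters held it. The Tagap promoter held 6 CG dinucleotides, against 34 in Tagap1, 22 in Rgs16 and 33 in Rgs2 and a median of 7 over all promoters. The Rgs3 entries held 4 and 9, the Rgs19 entries 27, 37 and 4, and the Rgs10 entry 34. A match or its lack describes these letters in this window only.

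In all groups the cultures expressed the markers of the labelled cell type. Cd3e was between 115 and 145 CPM and Cd8a between 193 and 371 CPM, where CPM, the usual depth-scaled unit, is the count over the TMM-scaled library total. Total gene counts ran from 10813123 to 15239077, so that 3 counts, the limit that a count of 0 allows, stood for 0.195 to 0.284 CPM. The libraries of different sets differed in 7382 of 13996 genes. Markers of antigen-presenting cells were present too. The 18 dendritic cell markers summed to 1816 and 1037 CPM in BiTS replicates 1 and 2, 2252 and 1236 CPM in BiTS(mut) replicates 1 and 2, and 2326 and 1170.1 CPM in isotype replicates 1 and 4. Of these markers, 15 were tested, and Siglech was at 0 in every library. Neutrophil markers summed to at most 0.551 CPM, erythroid markers to at most 1.04 CPM, B cell markers to 7.96 to 11.7 CPM, stromal markers to 11.9 to 19.0 CPM, platelet markers to 24.9 to 50.4 CPM, CD4 T cell markers to 74.1 to 99.2 CPM and NK cell markers to 82.4 to 107 CPM. The last 3 sums came mostly from 1 gene each: Itga2b (24.9 to 50.3 CPM), Zbtb7b (69.98 to 95.7 CPM) and Klrk1 (79.5 to 103 CPM). The defining markers Pf4 of platelets, Cd4 of CD4 T cells and Ncr1 of NK cells were at most at 0.0741, 0.518 and 0.0829 CPM. In bulk RNA, fewer cells of a type and less RNA per cell cannot be told apart.

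The level of each gene was compared across genes as TPM, which divides by the exon length given in the tables. Tagap was the most abundant of the 8 with 70.7 ± 15.97 TPM (SD, n = 6 libraries), followed by Rgs19 with 58.3 ± 2.67 TPM and Rgs1 with 45.5 ± 11.9 TPM. Rgs14 stood at 41.7 ± 1.72 TPM, Rgs10 at 36.5 ± 9.64 TPM, Rgs16 at 22.8 ± 5.15 TPM, Rgs2 at 20.4 ± 15.1 TPM and Rgs3 at 15.1 ± 1.66 TPM. Rgs19 lay above Rgs1 and Rgs10 above Rgs16 in 6 of 6 libraries. The other neighbours in this order changed places in at least 1 library: Tagap lay above Rgs19 in 5 of 6, Rgs1 above Rgs14 and Rgs14 above Rgs10 in 4 of 6, and Rgs16 above Rgs2 and Rgs2 above Rgs3 in 3 of 6. Rgs3, Rgs14 and Rgs19 had SDs of at most 2.67 TPM, while Rgs2 varied more than 6-fold, between 6.49 and 41.5 TPM.

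**Figure D1:**
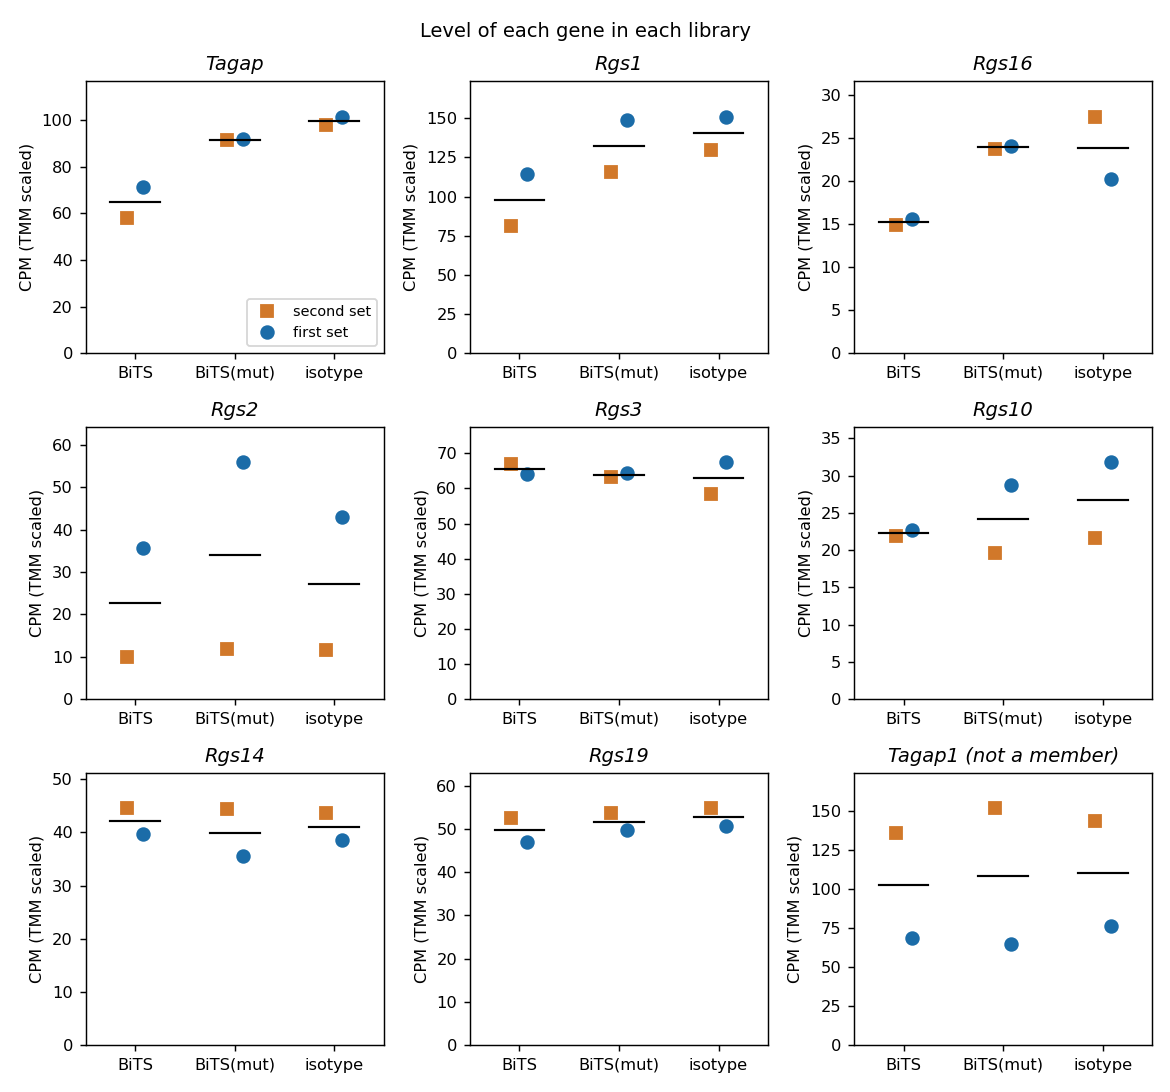
CPM of the 8 genes and of Tagap1 in the 6 libraries, by treatment, with squares for the second set, circles for the first set and a line at the mean of the 2 libraries of a group. BiTS libraries lie below all others for Tagap (71.3 and 58.1 CPM), Rgs1 and Rgs16, while Rgs2 splits by set, with 9.86 to 11.9 CPM in the second set and 35.6 to 55.9 CPM in the first set.

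Treatment with BiTS was set against the isotype control first. Tagap (chr17:7926000-7934897, mm10) was at 71.3 and 58.1 CPM in BiTS replicates 1 and 2, against 102 and 98.1 CPM in isotype replicates 1 and 4. Both BiTS libraries were below both isotype libraries. The mean was 64.7 ± 9.34 CPM in BiTS and 99.8 ± 2.44 CPM in isotype (SD, n = 2 each), a log2 fold change of -0.62 ± 0.09 (SE) when the set entered the fit as a block and of -0.62 ± 0.16 when it did not.

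Rgs1 (chr1:144242296-144249242), which curbs chemokine receptor signals in lymphocytes, was at 115 and 81.1 CPM in BiTS replicates 1 and 2, against 151 and 129.9 CPM in isotype replicates 1 and 4. The groups did not overlap, and the log2 fold change was -0.53 ± 0.09 with the block and -0.52 ± 0.23 without it. Rgs16 (chr1:153740349-153745468), an activation-induced RGS gene that likewise acts on chemokine signals, was at 15.6 and 15.0 CPM in BiTS, against 20.3 and 27.5 CPM in isotype libraries. Its 2 isotype values differed from each other by more than the lower one differed from BiTS. Its log2 fold change was -0.63 ± 0.14 with the block and -0.64 ± 0.22 without it. With the block and isotype replicate 4 left out it was -0.39. Within sets, Tagap was at -0.75 in the second and -0.51 in the first set, Rgs1 at -0.68 and -0.40, and Rgs16 at -0.88 and -0.38, each from 1 library against 1.

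The other 5 genes showed smaller differences between BiTS and isotype. Rgs2, an inhibitor of Gq signalling, was at 35.6 and 9.86 CPM in BiTS replicates 1 and 2, against 42.9 and 11.6 CPM in isotype replicates 1 and 4. It was lower in BiTS in both sets, with a log2 fold change of -0.26 ± 0.13 with the block and of -0.26 ± 0.96 without it. Rgs10, a small RGS protein that acts on Gi subunits, was at 22.7 and 21.9 CPM in BiTS, against 31.8 and 21.6 CPM in isotype libraries. It was thus lower in BiTS in the first set alone, and its log2 fold change with the block was -0.25 ± 0.13 over all libraries and 0.02 without BiTS replicate 1. Rgs19, also known as GAIP, was at -0.09 ± 0.10, Rgs3, which acts on Gi and Gq, at 0.06 ± 0.10, and Rgs14, which also carries a GoLoco motif that holds Gi in its GDP form, at 0.04 ± 0.11 on the log2 scale. Over the 8 genes the median was -0.25, against -0.0047 over all 13996 genes.

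The fit of edgeR without the block gave 0 calls among 13996 genes between BiTS and isotype (quasi-likelihood test, Benjamini-Hochberg adjusted p under 0.05), and so did DESeq2. By edgeR 176 genes or 1.26% had an unadjusted p under 0.05, Tagap and Rgs16 among them. With the block it called 476 genes, 3.4% of those tested, and 223 or 1.59% were lower. Of the 8 genes, Tagap, Rgs1 and Rgs16 were among them. Levels that were lower in BiTS with no overlap were found in the same 3 genes and in 9.5% of all genes. The choice of genes used this comparison, so nothing is read from these counts.

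BiTS was next set against BiTS(mut), which sets the same BiTS libraries against other ones. Since Tagap and Rgs16 were listed with their low counts in these BiTS libraries known, a p-value here would be too small, and their values are a description as well. The whole list was drawn up with results of these data in view, so the values of the other genes are a description too. Tagap was at 71.3 and 58.1 CPM in BiTS replicates 1 and 2, against 91.9 and 91.3 CPM in BiTS(mut) replicates 1 and 2. That is 1.41-fold lower, with a log2 fold change of -0.50 ± 0.09 with the block. Rgs16 was at 15.6 and 15.0 CPM in BiTS and at 24.2 and 23.8 CPM in BiTS(mut), 1.56-fold lower. In both groups its libraries lay within 1 CPM of each other, and the difference was -0.65 ± 0.14 on the log2 scale with the block.

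Rgs1 was at 115 and 81.1 CPM in BiTS, against 149 and 116 CPM in BiTS(mut). The 2 groups came within 2 CPM of each other, because both were lower in the second set, and within each set BiTS was lower. The log2 fold change was -0.44 ± 0.09 with the block and -0.435 ± 0.230 without it. Rgs2 was at 35.6 and 9.86 CPM in BiTS, against 55.9 and 11.9 CPM in BiTS(mut), and here the groups overlapped. Its log2 fold change was -0.53 ± 0.13 with the block and -0.57 ± 0.96 without it. It was -0.28 in the second and -0.65 in the first set.

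With the block, 4 of the 8 genes were called between BiTS and BiTS(mut), all lower, against 136 of 13996 genes or 0.972%, and 98 or 0.7% that were lower. Tagap, Rgs1 and Rgs16 were lower in BiTS with no overlap, as were 7.85% of all genes. The median over the 8 genes was -0.27, against 0.0005 over all genes. The choice of genes used the same BiTS libraries, so nothing is read from these counts either. In the fit without the block, edgeR and DESeq2 made 0 calls. By edgeR 76 genes or 0.543% had an unadjusted p under 0.05, Tagap and Rgs16 among them. The blocked calls also rested on single libraries: without BiTS replicate 2 the 1 remaining call was Rgs2, without BiTS(mut) replicate 1 it was Tagap, without BiTS(mut) replicate 2 there were 0, and without BiTS replicate 1 there were 3, with Rgs2 no longer called. In DESeq2 with the block, Tagap and Rgs1 were called and Rgs16 and Rgs2 (adjusted p = 0.389) were not.

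No call was made for Rgs10 (-0.11 ± 0.13), Rgs19 (-0.06 ± 0.10), Rgs3 (0.04 ± 0.09) or Rgs14 (0.08 ± 0.11) between BiTS and BiTS(mut). The 95% intervals of their log2 fold changes ran from -0.38 to 0.16 for Rgs10, from -0.25 to 0.14 for Rgs19, from -0.15 to 0.23 for Rgs3 and from -0.13 to 0.29 for Rgs14 with the block. Without it they ran from -0.79 to 0.56 for Rgs10 and from -0.43 to 0.33 for Rgs19. For Rgs3 they then ran from -0.34 to 0.41 and for Rgs14 from -0.38 to 0.53. Rgs3 was at 64.1 and 67.0 CPM in BiTS, 64.5 and 63.3 CPM in BiTS(mut) and 67.4 and 58.3 CPM in isotype libraries. Rgs14 was at 39.7 and 44.6 CPM, 35.6 and 44.3 CPM and 38.5 and 43.7 CPM in the same order of groups, and Rgs19 at 47.0 and 52.4 CPM, 49.7 and 53.6 CPM and 50.7 and 54.8 CPM. For these 3 genes the 3 groups overlapped.

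BiTS(mut) against isotype gave no call among the 8 genes, with or without the block. The choice of genes used these isotype libraries too, so the values and intervals of this comparison are a description and not a test. Over all 13996 genes the block gave 7 calls, 0.05%. Leaving it out gave 0 by edgeR and by DESeq2, and 41 genes or 0.293% had an unadjusted p under 0.05 by edgeR. Tagap was at 91.9 and 91.3 CPM in BiTS(mut), against 102 and 98.1 CPM in isotype libraries, with no overlap, as for 6.89% of all genes. Its log2 fold change was -0.12 ± 0.09 with a 95% interval from -0.30 to 0.06 with the block. Rgs1 was at -0.09 ± 0.09 (-0.26 to 0.08), Rgs16 at 0.02 ± 0.13 (-0.25 to 0.29) and Rgs10 at -0.14 ± 0.13 (-0.41 to 0.12). Without the block the 95% intervals ran from -0.52 to 0.27 for Tagap and from -0.64 to 0.47 for Rgs1. For Rgs16 they ran from -0.52 to 0.52 and for Rgs10 from -0.82 to 0.53. Rgs2 was higher in BiTS(mut) in both sets, 55.9 and 11.9 CPM against 42.9 and 11.6 CPM, with a log2 fold change of 0.27 ± 0.13, an unadjusted p of 0.0398 and an adjusted p of 1.0 in edgeR with the block.

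**Figure D2:**
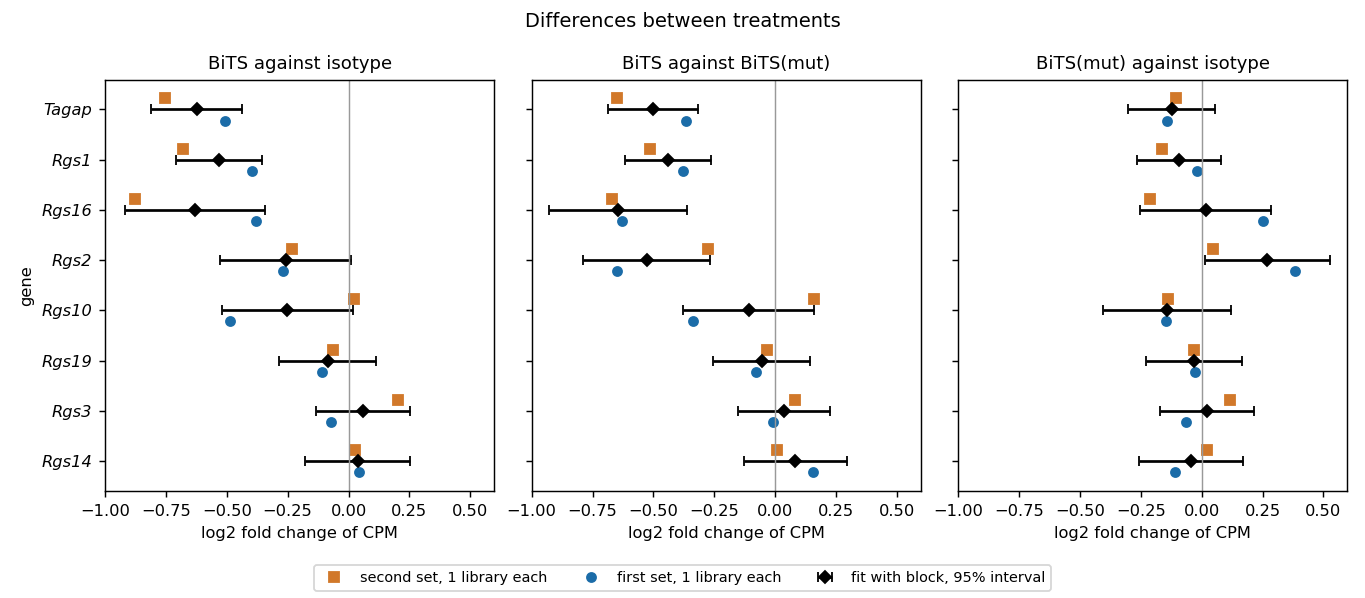
Log2 fold changes of CPM for the 8 genes in the 3 comparisons of treatments, with squares for the second set and circles for the first set (1 library against 1), and diamonds with 95% intervals for the fit with a block for the set. Between BiTS and BiTS(mut) the blocked intervals of Tagap, Rgs1, Rgs16 and Rgs2 lie below 0. Without the block (not drawn) those of Rgs1 (-0.995 to 0.125) and Rgs2 (-2.90 to 1.75) include 0. The choice of genes used the BiTS and isotype libraries, so the intervals of all 3 comparisons are a description and not a test. Between BiTS(mut) and isotype the 8 values lie between -0.14 and 0.27.

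The 3 comparisons share libraries and are not independent of each other. Within a set, the BiTS library was the lowest of 3 in both sets for Tagap, Rgs1, Rgs2, Rgs16 and Rgs19, and for 16.5% of all genes. The choice of genes used these libraries, so nothing is read from this count. With the block, 5 of 15 tested dendritic cell markers were lower and 0 higher in BiTS than in isotype. Their median log2 fold change was -0.31, and 1.59% of all genes were called lower. Against BiTS(mut) 4 of these markers were lower and 0 higher, with a median of -0.27, and 0.7% of all genes were called lower. Between the second and the first set the median of these markers was -1.05. There Tagap was at -0.11, Rgs1 at -0.36, Rgs2 at -2.003, and Rgs16 and Rgs19 at 0.13 each. Of 10 CD8 T cell markers with the block, 3 were higher and 0 lower in BiTS than in isotype. Against BiTS(mut) 0 were higher and 1 (Cd5) lower. In either direction 3.4% and 0.972% of all genes were called in these comparisons. Without the block, 0 dendritic cell or CD8 T cell markers were called. The CD8 T cell markers summed to 2447 and 2747 CPM in BiTS, 2198 and 2558 CPM in BiTS(mut) and 2013 and 2535 CPM in isotype libraries. The part of these markers in the values of Tagap, Rgs1 and Rgs16 was not tested.

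The sets differed in Rgs2 more than the treatments did. Rgs2 (chr1:143999338-144004161) was at 9.86, 11.9 and 11.6 CPM in the second-set libraries of BiTS, BiTS(mut) and isotype, against 35.6, 55.9 and 42.9 CPM in the first set. Every second-set library was below every first-set one. The difference was 4.01-fold, a log2 fold change of -2.003 ± 0.11 with groups as a term (adjusted p = 1.87e-20, edgeR's quasi-likelihood test), and it was -1.85 in BiTS, -2.23 in BiTS(mut) and -1.89 in isotype.

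Rgs1 and Rgs10 were also lower in the second set. Rgs1 fell by 0.36 ± 0.07 on the log2 scale (adjusted p = 3.41e-05) and was lower in all 3 groups, with -0.50 in BiTS, -0.36 in BiTS(mut) and -0.22 in isotype. Rgs10 fell by 0.39 ± 0.11 (adjusted p = 0.0022). It was at 21.9, 19.6 and 21.6 CPM in the second set, against 22.7, 28.7 and 31.8 CPM in the first set, so that BiTS contributed -0.05 and the other groups -0.55 and -0.56. Without either BiTS(mut) library Rgs10 was no longer called. Rgs14 was 0.22 ± 0.09 higher in the second set (adjusted p = 0.0276). It was not called by DESeq2, without a filter, with library totals alone, or without any 1 BiTS or BiTS(mut) library, and with spike-in scaling it was at -0.54.

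The set moved Tagap (-0.11 ± 0.07), Rgs3 (-0.06 ± 0.08), Rgs16 (0.13 ± 0.11) and Rgs19 (0.13 ± 0.08) less, and none of the 4 was called. Thus 4 of the 8 genes were called between sets, against 52.7% of all genes, 3 lower against 26.9% and 1 higher against 25.9%. Their median was -0.08, against 0.02 over all genes. Levels without overlap between sets were lower in Rgs2 and Rgs10 (27.8% of all genes) and higher in Rgs14 and Rgs19 (27.9%). Scaling to the ERCC spike-in transcripts shifted the median of all genes by -0.74 between sets, and under it Rgs2, Rgs1, Rgs10, Tagap and Rgs3 were called lower. Of 15 tested dendritic cell markers, 13 were lower and 1 was higher in the second set, with a median log2 fold change of -1.05. Of 10 CD8 T cell markers, 1 was lower and 6 were higher in the second set, with a median of 0.27. The 13 macrophage and monocyte markers summed to between 53.3 and 58.6 CPM in the second set and between 60.6 and 68.1 CPM in the first set, and of the 6 tested 4 were lower and 2 higher. Mitochondrial transcripts held 10.7% to 11.03% of gene counts in the second set and 7.87% to 9.14% in the first set. The part of these differences in the values of Rgs2, Rgs1, Rgs10 and Rgs14 was not tested.

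**Figure D3:**
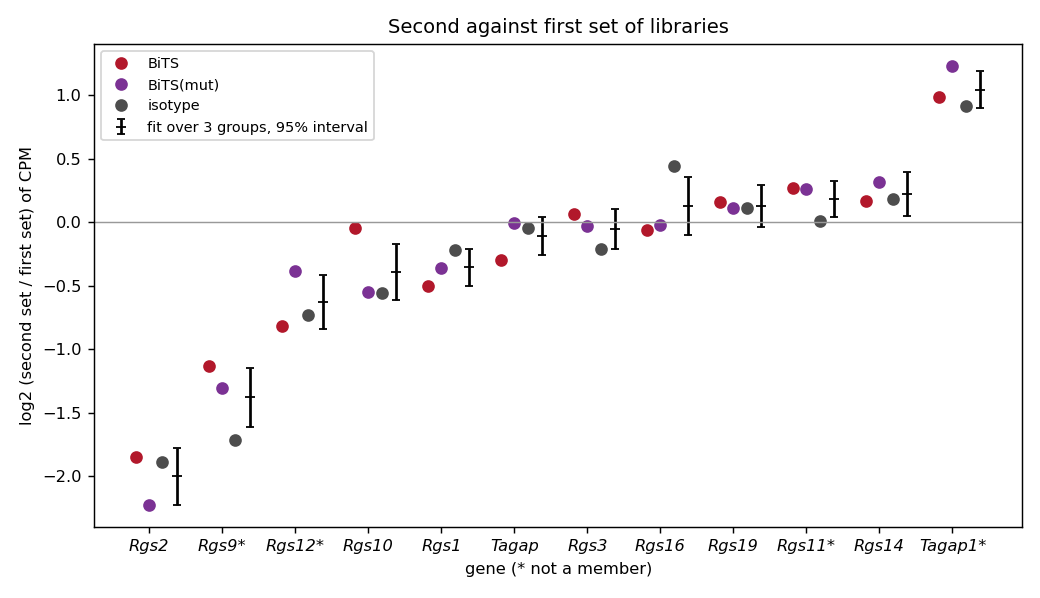
Log2 ratio of CPM in the second over the first set for the 8 genes and 4 genes outside the list (asterisks), as 1 point per treatment and as the fit over the 3 groups with its 95% interval. Rgs2 lies lowest at -2.003 and Tagap1 highest at 1.04, with the 3 treatments on the same side of 0 for both.

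Tagap and Tagap1 may share reads, so the split of counts between them is uncertain. Of the 50-base windows of Tagap transcripts, 57.5% also occur in transcripts of other genes, 47.6% in Tagap1. The strand setting of the counts is not given in the sources used here, and 716 of 3076 Tagap exon bases overlap the antisense gene E430024P14Rik, which had 47 to 97 counts a library. Tagap1 (chr17:6954965-6961156) was at 68.7 and 136 CPM in BiTS replicates 1 and 2, 64.6 and 152 CPM in BiTS(mut) replicates 1 and 2, and 76.1 and 144 CPM in isotype replicates 1 and 4. It was higher in every second-set library than in any first-set one. The difference between sets was 1.04 ± 0.07 on the log2 scale (adjusted p = 1.03e-16), and between treatments no call was made: BiTS was at -0.11 ± 0.09 against isotype and at -0.05 ± 0.09 against BiTS(mut) with the block.

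Of the counts of Tagap and Tagap1 together, Tagap held 30.0% in BiTS (95% Wilson interval 28.1% to 32.0%), 37.6% in BiTS(mut) (35.9% to 39.3%) and 40.6% in isotype (38.7% to 42.5%) in the second set. In the first set it held 51.0% in BiTS (48.7% to 53.2%), 58.7% in BiTS(mut) (56.7% to 60.7%) and 57.2% in isotype (55.1% to 59.3%). The share was lowest in BiTS in both sets, and higher in each first-set library than in any second-set one. These intervals cover counting error only. The 2 genes summed to 140 and 194 CPM in BiTS, 157 and 243 CPM in BiTS(mut) and 178 and 242 CPM in isotype libraries. The sum was lower in BiTS than in isotype by 0.32 in the second and 0.34 in the first set on the log2 scale, and lower than in BiTS(mut) by 0.33 and 0.16, each from 1 library against 1.

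**Figure D4:**
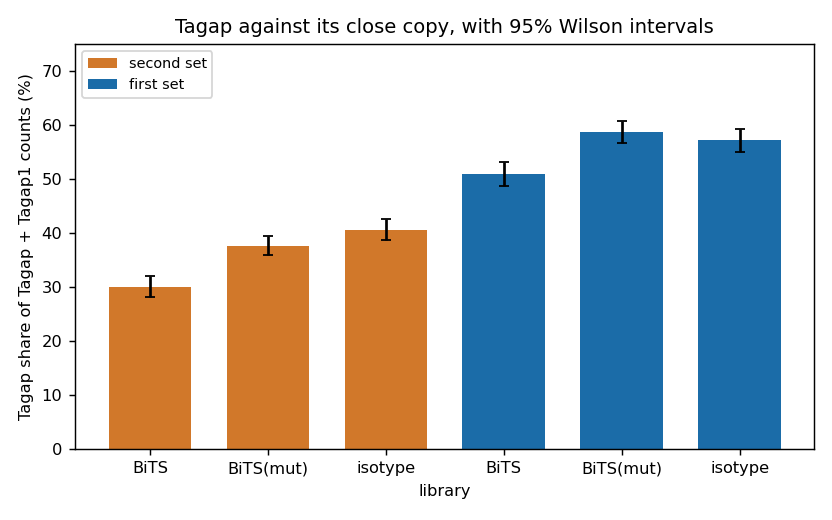
Share of Tagap in the counts of Tagap and Tagap1 together, 1 bar per library, second set left and first set right, with 95% Wilson intervals that cover counting error only. In each set the BiTS bar is the lowest, at 30.0% and 51.0%.

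Shared sequence was smaller elsewhere. It reached 11.4% of Rgs3 windows (shared with Gm5763) and 8.34% of Rgs16 windows (shared with Gm28513, which overlaps 236 exon bases of Rgs16 on the other strand and had 0 to 3 counts), and 0.705% of Rgs14 windows. Rgs1, Rgs2, Rgs10 and Rgs19 shared none.

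Of 14 further RGS genes, 4 were tested. With the block, 1 of them was called higher and 0 lower in BiTS against isotype, and 3.4% of all genes in either direction. Between sets 1 was higher and 2 lower in the second set, against 25.9% and 26.9% of all genes. Rgs11, an RGS protein that pairs with the G protein beta subunit Gnb5, was at 256 and 309.6 CPM in BiTS, 221 and 265 CPM in BiTS(mut) and 208 and 209 CPM in isotype libraries. It was higher in BiTS than in isotype by 0.43 ± 0.09 on the log2 scale with the block (adjusted p = 0.000961). Without the block the difference was 0.44 ± 0.17 and was not called. Its log2 fold change against BiTS(mut) was 0.22 ± 0.08 with the block (adjusted p = 0.322). Of its exon bases, 138 overlap Arhgdig on the other strand, which had 194 to 346 counts. Rgs9, of the same subfamily, was at 13.0, 12.4 and 10.8 CPM in the second set, against 28.4, 30.5 and 35.6 CPM in the first set, in BiTS, BiTS(mut) and isotype, a log2 fold change of -1.38 ± 0.12 (adjusted p = 4.04e-14). Rgs12, which shares the GoLoco motif with Rgs14, fell by 0.63 ± 0.11 between sets (adjusted p = 2.15e-06), and Rgs7 stayed between 0.664 and 1.56 CPM. The other 10, Rgs4, Rgs5, Rgs6, Rgs8, Rgs13, Rgs17, Rgs18, Rgs20, Rgs21 and Rgs22, had at most 6 counts in any library, and Rgs5, Rgs6, Rgs18 and Rgs21 had 0 in all.

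The receptors upstream of the RGS proteins were next. Of 24 tested G protein-coupled receptors of T cells, 2 rose and 0 fell in BiTS against isotype with the block, against 3.4% of all genes called in either direction, with a median log2 fold change of 0.13. They were the chemokine receptor Ccr4 (0.58 ± 0.15, adjusted p = 0.0137) and the lysophosphatidylserine receptor P2ry10 (0.42 ± 0.11, adjusted p = 0.0213). Ccr4 was at 19.8 and 22.8 CPM in BiTS, 12.4 and 12.5 CPM in BiTS(mut) and 12.5 and 16.1 CPM in isotype libraries, and it also rose against BiTS(mut) (0.77 ± 0.15, adjusted p = 0.00142). Ccr6 fell against BiTS(mut) (adjusted p = 0.0247) on 2 and 8 counts in BiTS against 24 and 29 counts in BiTS(mut). Thus 2 of the 24 were called against BiTS(mut), and 0.972% of all genes. Between sets 1 receptor was higher and 12 of the 24 were lower in the second set, against 25.9% and 26.9% of all genes. The one with the smallest p was the chemokine receptor Cxcr4, which was at 61.8, 49.4 and 40.7 CPM in the second set, against 132, 133 and 124 CPM in the first set (-1.37 ± 0.08, adjusted p = 1.64e-19).

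Of 18 tested G protein subunits, the substrates and partners of the RGS proteins, 0 were called between treatments with the block, and the medians were -0.0095 for BiTS against isotype and -0.0073 for BiTS against BiTS(mut). Between sets 3 were higher and 7 lower in the second set, Gnai2, a Gi subunit through which chemokine receptors signal, among the lower (-0.34 ± 0.07, adjusted p = 2.22e-05). Those 10 of 18 lie near the 52.7% of all genes that were called between sets. No gene of these lists was called without the block, and none between BiTS(mut) and isotype with it.

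Likeness was the root mean square difference of log2(CPM + 0.5) over the 6 libraries after each gene was centred on its mean. The search covered 9733 tested genes with a mean of at least 5 CPM and a symbol. Gene-model names, such as those that begin with Gm or end in Rik, were left out. The 5 genes nearest to Tagap were Ube2l6 (0.0751), Cemip2 (0.0759), Plagl2 (0.0844), Slfn2 (0.0975) and Trim30d (0.100), against a median distance of 0.347 and a spread of 0.285 in Tagap itself. Ube2l6, which encodes the conjugating enzyme of the interferon-induced modifier ISG15, was at 9.04 and 6.92 CPM in BiTS, 11.8 and 11.8 CPM in BiTS(mut) and 13.9 and 11.3 CPM in isotype libraries. The 5 nearest to Rgs16 were Nebl (0.108), Batf2 (0.109), Dclk1 (0.110), Dolk (0.113) and Lad1 (0.120), against a median of 0.374. Among the 8 genes themselves the nearest pairs were Rgs14 with Rgs19 (0.0866), Rgs3 with Rgs19 (0.121) and Tagap with Rgs1 (0.132). Tagap with Rgs16 stood at 0.167. Genes that vary little lie close by this measure, and Rgs3, Rgs14 and Rgs19 had SDs of at most 2.67 TPM. The distances from Rgs2 to the other 7 ran from 0.806 to 1.11.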

How the data were processed

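The authors deposited 1 table per library with raw counts per gene and exon intervals, per the file headers. The submitters' processing notes name mm10 and DESeq2. Not given in the sources used here are aligner, counter, annotation release and strand setting. Symbols were taken by identifier from GENCODE M21 (49326 of 49671 genes), and 92 ERCC spike-in transcripts, 3.36% to 7.54% of all counts, were kept apart.

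Deposited counts passed filterByExpr and TMM scaling and were fitted over all 6 libraries with edgeR 4.0.16 (limma 3.58.1, R 4.3.3), with the two-sided quasi-likelihood test and Benjamini-Hochberg adjustment over 13996 genes, called under 0.05. The main fit had 1 coefficient per group and no block. A replicate block by title-number set is given beside it because it changes calls. Standard errors and intervals of treatment differences are those with the block unless stated. Those of the main fit were wider for all 8 genes. The pairing comes from the title numbers and is not stated by the labels. Same-set libraries deviated together from their group means (correlations of 0.7, 0.78 and 0.76), and their chi-square per degree of freedom was 4.21 to 9.6, against 28.8 to 44.0 for libraries of different sets. The block leaves 2 residual degrees of freedom a gene and adds 45.95 from the spread shared over genes, against 3 and 3.138 without it, so its small p-values lean on the shared spread. Alternatives were DESeq2 1.42.0, RLE size factors, library totals, spike-in scaling, other filters and leaving out each library. The fitting steps were tested on simulated data in which all genes had the same spread. That run checks the steps and cannot show whether the p-values here are right.

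The genes, the lists and the tests were chosen with earlier results of these data known. Named are all 8 genes, the other RGS genes and Tagap1, the 5 genes nearest to Tagap and to Rgs16, and up to 5 called genes a pathway list and comparison by smallest p, of which the text gives some. Of the pathway lists, 2 are not reported here. Promoters and motifs are from the RefSeq table of GRCm38.p6, which has the coordinates of mm10.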

Additional observations from a re-analysis of the deposited data

Results flagged for a closer look

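In 7 cases the log2 fold change had one sign in one set and the opposite sign in the other, with 1 library against 1 in each, and the difference between sets was not tested. In 4 of them 1 value is smaller than its counting standard error: Rgs10 for BiTS against isotype (0.02 ± 0.13, second set), Rgs3 for BiTS against BiTS(mut) (-0.0092 ± 0.0671, first set), and Rgs3 (-0.0647 ± 0.0683, first set) and Rgs14 (0.02 ± 0.09, second set) for BiTS(mut) against isotype. Rgs10 was at 0.02 in the second and -0.49 in the first set for BiTS against isotype, a difference of 0.51 on the log2 scale, and at 0.16 and -0.34 for BiTS against BiTS(mut), a difference of 0.50. Rgs16 was at -0.21 in the second and 0.25 in the first set for BiTS(mut) against isotype, a difference of -0.46. Rgs3 was at 0.20 in the second and -0.07 in the first set for BiTS against isotype, a difference of 0.27, at 0.08 and -0.01 for BiTS against BiTS(mut), a difference of 0.093, and at 0.12 and -0.06 for BiTS(mut) against isotype, a difference of 0.18. Rgs14 was at 0.02 in the second and -0.11 in the first set for BiTS(mut) against isotype, a difference of 0.13.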

How the results depend on the processing

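Without the block, 0 of the 8 genes were called in the 3 treatment comparisons under the alternatives run. Over all genes, that fit called 11, 3 and 5 genes with no filter, against 0 with it, for BiTS against isotype, BiTS against BiTS(mut) and BiTS(mut) against isotype. With the block DESeq2 called 155, 51 and 2 genes and spike-in scaling left 0, 0 and 1, against 476, 136 and 7. With the replicate block 3 were called for BiTS against isotype and 4 for BiTS against BiTS(mut). These counts were also 3 and 4 with the block and RLE size factors, library totals, no filter or a minimum of 5 CPM in 2 libraries, 2 and 2 in DESeq2, and 0 and 0 with spike-in scaling. Leaving out 1 library gave 0 to 3 calls for BiTS against isotype, 0 to 4 for BiTS against BiTS(mut) and 2 to 4 for the second against the first set, where leaving out either BiTS(mut) library gave 2. The block then leaves 1 residual degree of freedom a gene, and a lone library is assumed to vary like the others. With the block, 1 call (Tagap) was left for BiTS against isotype without BiTS replicate 2, and 2 (Tagap and Rgs1) without isotype replicate 4. The choice of genes used the BiTS and isotype libraries, so the counts for the treatment comparisons say nothing of stability. The cause of these changes was not tested.

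Spike-in scaling shifted the median of all genes by 0.05 for BiTS against isotype, 0.18 for BiTS against BiTS(mut), -0.12 for BiTS(mut) against isotype and -0.74 between sets. Under it signs turned for Rgs10 (0.088) and Rgs19 (0.12) against BiTS(mut), for Rgs3 (-0.093) and Rgs16 (-0.11) in BiTS(mut) against isotype, and for Rgs14 (-0.54), Rgs16 (-0.65) and Rgs19 (-0.63) between sets. Leaving out 1 library, with or without the block, gave both signs for these log2 fold changes. For BiTS against isotype they ran from -1.47 to 0.98 in Rgs2, -0.51 to 0.046 in Rgs10, -0.049 to 0.17 in Rgs3 and -0.054 to 0.13 in Rgs14. For BiTS against BiTS(mut) they ran from -1.79 to 0.94 in Rgs2, -0.36 to 0.19 in Rgs10, -0.13 to 0.023 in Rgs19, -0.052 to 0.13 in Rgs3 and -0.065 to 0.24 in Rgs14. For BiTS(mut) against isotype they ran from -1.20 to 1.56 in Rgs2, -0.29 to 0.086 in Rgs1, -0.45 to 0.16 in Rgs10, -0.20 to 0.10 in Rgs14, -0.23 to 0.26 in Rgs16, -0.089 to 0.025 in Rgs19 and -0.084 to 0.13 in Rgs3. Between sets they ran from -0.048 to 0.21 in Rgs16 and -0.12 to 0.011 in Rgs3. For Rgs2 between sets the sign held under every alternative run. It also held for Tagap, Rgs1 and Rgs16 in both comparisons of BiTS, where the choice of genes in part fixed it.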
